A study of Homo sapiens with 6 samples.

Results

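RNAs of the respiratory chain were followed in OVCAR5, a human line from ovarian cancer that is BRCA wild-type and p53 null, and in its derivative OVCAR5R, which resists the CHK1 inhibitor prexasertib (Prex). Members were picked by gene symbol alone, as the rows for mitochondrial-encoded genes and for the nuclear-encoded subunits of complexes I to V. This gave 97 of the 12308 rows analyzed, 15 encoded by the mitochondrial genome and 82 by the nucleus. All 97 passed the filter on low values.

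RNA-seq had been run on total RNA from 3 cultures of each line, and the lines were compared as OVCAR5R minus OVCAR5. The drug dose had been escalated to 3 µM to obtain OVCAR5R and was 2 µM in its routine culture, and a drug-free period of 4 days or longer preceded the experiments. OVCAR5R is 1 derivative of the line, so effects of the drug selection and differences particular to that derivative cannot be told apart.

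Respiratory chain complexes I, III and IV pass electrons from nutrients to oxygen and pump protons across the inner mitochondrial membrane, and complex V uses the proton gradient to make ATP. Complex II feeds electrons into the chain without pumping, and it is the only complex whose subunits are all encoded in the nucleus. The core membrane subunits of the other complexes are transcribed inside the organelle from the 2 strands of a small circular genome as long precursor RNAs, which are then cut at the tRNAs that lie between most genes. The nuclear subunits are transcribed singly, translated in the cytosol and imported, so every complex except II needs transcripts from both genomes.

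Each value is a linear normalized signal (scaled estimated reads per gene, not divided by gene length), and differences are given on the log2(value + 1) scale. Libraries held 35826701 to 41311592 estimated reads on the listed genes in OVCAR5 and 50295813 to 55065028 in OVCAR5R. Read depth thus separated the cell lines without overlap, and its part in the differences between them was not tested. The member with the fewest reads had 315 in a library. Over the 11766 genes tested by limma, 14 had an adjusted p under 0.05, which is 0.119% of them (0.102% lower and 0.017% higher in OVCAR5R). OVCAR5 replicate 2 stood apart from the other libraries. Its Pearson's r across genes was 0.898 and 0.883 with OVCAR5 replicates 1 and 3, which had 0.955 with each other. The epithelial marker EPCAM was at 597 in it and between 11.9 and 31.7 in the other 5 libraries, and KRT19 was at 1341 against 3.09 to 10.7. KRT8 and KRT18, keratins of simple epithelia, were high in all 6 libraries and highest in OVCAR5 replicate 2. KRT8 was at 7772 in it and 1031 to 2103 in the others, and KRT18 at 6196 against 1108 to 1992. CLDN4 was at 464 against 68.6 to 142, and the epithelial marker CDH1 was not listed. PAX8, a marker of serous ovarian cancer, stayed between 4.38 and 11.4 and WT1 under 1, and MUC16 was not listed. Of 4 leukocyte, 3 endothelial and 3 erythroid markers only CD14 was listed, between 2.02 and 20.2, and of 5 fibroblast markers COL1A1 (1.29 to 15.2) and PDGFRB (0.145 to 1.90) were. Results are therefore also given without OVCAR5 replicate 2, which decided several values for the nuclear genes.

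The mitochondrial genes sit so close together that some share bases, and reads there cannot be assigned to 1 gene. The stretches below, from the GENCODE release 29 transcripts, show these junctions, with the shared bases in capitals. The 46 shared bases of MT-ATP8 and MT-ATP6 on the mitochondrial chromosome (GRCh38 chrM:8527-8572, plus strand, in the coding sequence of both genes) make up 22.2% of MT-ATP8. MT-ND4L and MT-ND4 share 7 bases (chrM:10760-10766).
MT-ATP8 and MT-ATP6: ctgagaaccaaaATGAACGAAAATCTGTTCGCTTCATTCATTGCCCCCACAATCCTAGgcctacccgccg
MT-ND4L and MT-ND4: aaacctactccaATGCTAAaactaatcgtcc

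Further copies lie in the nucleus. Chromosome 1 carries 5 pseudogenes with rows of their own, 98.0% to 98.6% identical to their mitochondrial parents over the aligned bases. The start of MT-ATP6 and of its copy MTATP6P1 (chr1:633696-634376, plus strand, 10 differences over 681 bases) are set side by side here with the first difference, G19A counted from the first base of the gene, in capitals.
MT-ATP6: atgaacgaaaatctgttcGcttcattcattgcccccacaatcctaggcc
MTATP6P1: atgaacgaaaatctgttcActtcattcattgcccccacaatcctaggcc

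The signal listed for MTATP6P1 was 14.1% to 15.5% of that of MT-ATP6 in each of the 6 libraries, and its log2 fold change was -1.06 against -1.05 for the parent. MTCO1P12 held 0.697% to 0.807% of the signal of MT-CO1, with -1.12 against -1.10. The other copies lay further from their parents. MTCO2P12 had -0.97 against -1.06, MTCO3P12 -0.83 against -0.98 and MTND2P28 -0.48 against -0.64. The level of MT-ATP6 in particular is therefore uncertain by the part listed for its copy, while the 2 rows gave nearly the same difference between the cell lines. These pseudogenes were named after their values were seen.

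All 13 mitochondrial-encoded mRNAs and both mitochondrial rRNAs were lower in OVCAR5R by their means, as were 50.8% of all genes tested, while the nuclear subunits of the same complexes showed no such shift. The median log2 fold change was -0.98 over the 13 mRNAs and -0.05 over the 77 nuclear subunits, against -0.01 over all genes tested. No member had an adjusted p under 0.05 in limma, in either direction. At an unadjusted p under 0.05 there were 14 members, against 10.4% of all genes tested. They were 12 of the 15 mitochondrial RNAs, all lower, and 2 of the 82 nuclear members, NDUFA6 lower and ATP5S higher, where 6.25% of all genes were lower and 4.14% higher at that level. The count of 12 went to 6 without OVCAR5 replicate 1 and also to 6 without OVCAR5R replicate 1. Every OVCAR5R library was below every OVCAR5 library for 14 of the 15 mitochondrial RNAs, against a background of 8.18% of the genes tested. This count of 14 was 8 after quantile normalization and 9 after a correction by transcript length, with 6.88% and 7.35% of all genes lower without overlap. For the nuclear members this count was 0 lower and 4 higher, with 8.4% of all genes higher without overlap. An exact rank test of 3 against 3 libraries cannot give a two-sided p below 0.1, the value that genes without overlap reach. The mitochondrial RNAs come from 1 small genome and are not independent of each other. Lower mitochondrial content, less RNA per mitochondrion and differences in library preparation cannot be told apart here.

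**Figure D1:**
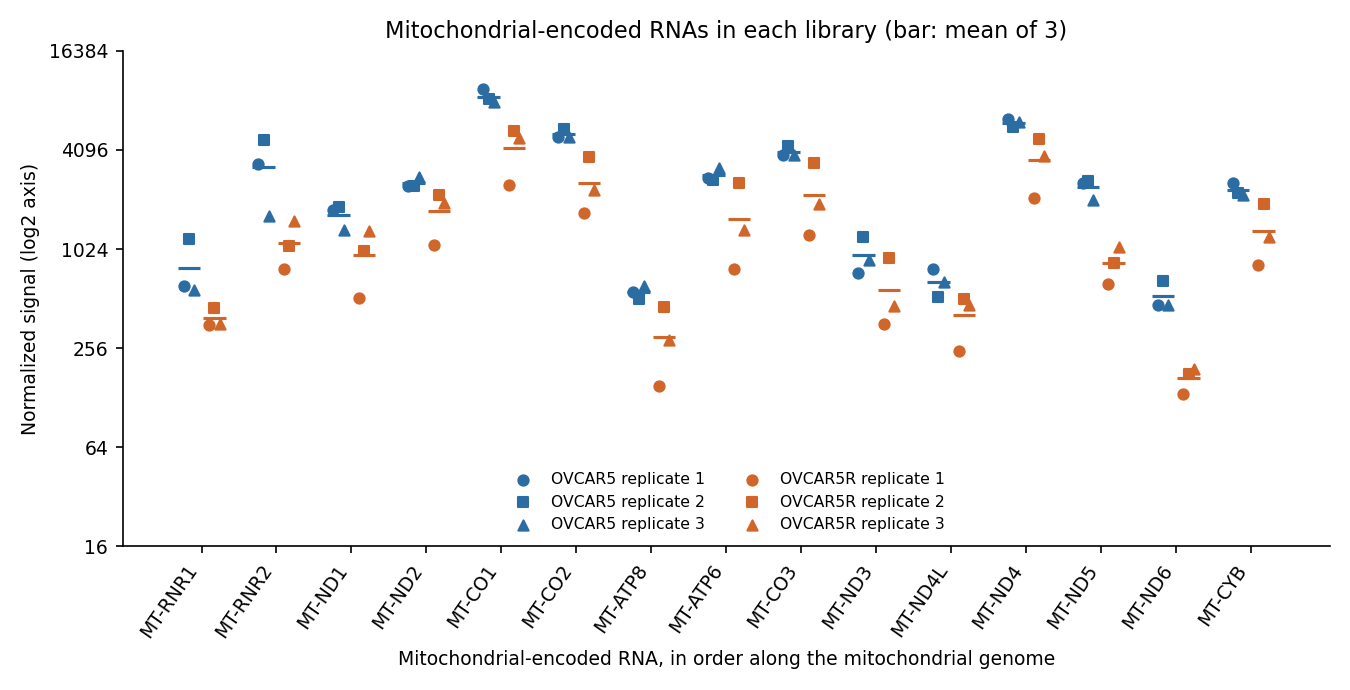
Normalized signal (log2 axis) of the 15 mitochondrial-encoded RNAs in each of the 6 libraries, in order along the mitochondrial genome, with OVCAR5 in blue, OVCAR5R in orange and a bar at the mean of 3 libraries. OVCAR5R lies below OVCAR5 for every RNA by the mean, the lines overlap only for MT-ND3, and OVCAR5R replicate 1 is the lowest of the 6 libraries for all 13 mRNAs.

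MT-ND6, a membrane subunit of complex I and the only mRNA transcribed from the opposite strand (chrM:14149-14673, minus strand), had the largest difference of all 97 members. Whether reads were counted by strand is not given in the sources used here. Precursors of the plus strand also cover this stretch, so the signal listed for MT-ND6 may hold reads of both strands. Its signal was 466, 653 and 466 in the parental cultures and 135, 177 and 192 in the resistant ones, each in the order of replicates 1, 2 and 3, as for all values below. The 3 OVCAR5R libraries lay close together and far below the parental ones. The log2 fold change was -1.64 (adjusted p = 0.0663 by limma, standard error 0.23), and the mean was 68.2% lower.

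MT-ND5, the neighbouring gene on the plus strand (chrM:12337-14148) and the most distal of the complex I proton-pumping subunits, followed with values of 2593, 2646 and 2044 in OVCAR5 and 627, 847 and 1051 in OVCAR5R. Every parental library was far above the highest resistant one. Its log2 fold change was -1.55 (adjusted p = 0.123 by limma, standard error 0.26).

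The other 5 complex I genes differed less. MT-ND1, which helps form the ubiquinone site, was at 1764, 1839 and 1332 in OVCAR5 and 517, 999 and 1321 in OVCAR5R, so that OVCAR5R replicate 3 almost met OVCAR5 replicate 3. MT-ND2, an antiporter-like pump subunit, was at 2470, 2482 and 2820 against 1078, 2184 and 1949. MT-ND4, another pump subunit, was at 6345, 5604 and 6012 against 2100, 4777 and 3751. Their log2 fold changes were -0.89, -0.64 and -0.84, with standard errors of 0.36, 0.30 and 0.33 in that order.

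MT-ND3, a small subunit at the hinge of complex I, was the 1 mitochondrial RNA whose libraries overlapped. It was at 728, 1210 and 872 in OVCAR5 and at 358, 902 and 462 in OVCAR5R, so OVCAR5R replicate 2 exceeded OVCAR5 replicates 1 and 3. MT-ND4L, whose end overlaps MT-ND4, was at 777, 527 and 643 against 245, 509 and 471, without overlap. Their log2 fold changes were -0.79 and -0.72, and the adjusted p-values of these 5 genes lay between 0.448 and 0.507 (limma).

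Cytochrome b, the only mitochondrial product in complex III, is encoded by MT-CYB. Its signal was 2562, 2256 and 2181 in OVCAR5 and 817, 1911 and 1206 in OVCAR5R, a log2 fold change of -0.91 (adjusted p = 0.391 by limma, standard error 0.32). Here too OVCAR5R replicate 1 was lowest and replicate 2 nearest to the parental line.

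The catalytic core of complex IV is made of MT-CO1, MT-CO2 and MT-CO3, and MT-CO1 had the highest signal of all members. It was at 9561, 8300 and 7987 in OVCAR5 and 2515, 5300 and 4819 in OVCAR5R. MT-CO2, which takes electrons from cytochrome c, was at 4879, 5484 and 4908 against 1684, 3714 and 2336. MT-CO3 was at 3825, 4297 and 3799 against 1249, 3398 and 1929. All 3 were lower without overlap, with log2 fold changes of -1.10, -1.06 and -0.98 and adjusted p-values of 0.323, 0.321 and 0.415 (limma).

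Both mitochondrial subunits of complex V belong to its membrane part. MT-ATP6, which lines the proton channel, was at 2779, 2673 and 3176 in OVCAR5 and 773, 2564 and 1337 in OVCAR5R. Although the groups did not overlap, OVCAR5R replicate 2 was only a little below OVCAR5 replicate 2. MT-ATP8 was at 563, 506 and 611 against 151, 457 and 285. The log2 fold changes were -1.05 and -1.04 with standard errors of 0.41 and 0.37.

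The rRNAs of the mitochondrial ribosome were lower too, with a wider spread in the parental line. MT-RNR2, the large-subunit rRNA, was at 3366, 4701 and 1624 in OVCAR5 and 778, 1067 and 1514 in OVCAR5R. MT-RNR1, the small-subunit rRNA, was at 615, 1173 and 576 against 352, 450 and 361. OVCAR5 replicate 2 was the highest for both. The log2 fold changes were -1.45 (adjusted p = 0.308 by limma, standard error 0.42) and -0.95 (adjusted p = 0.342 by limma, standard error 0.30) by limma. How rRNA was removed or mRNA selected is not given in the sources used here, so the rRNA level relative to mRNA is not interpreted.

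The cultures of OVCAR5R differed widely among themselves in these RNAs. The median of the 13 mRNAs, on the log2 scale relative to the OVCAR5 mean, was -1.65, -0.32 and -0.97 in OVCAR5R, whereas the parental cultures lay at 0.01, -0.04 and -0.06. Mitochondrial mRNAs took 3.91%, 3.71% and 3.55% of the total signal in OVCAR5 and 1.21%, 2.78% and 2.25% in OVCAR5R. Leaving out OVCAR5R replicate 1 brought the median log2 fold change to -0.63, and leaving out OVCAR5R replicate 2 brought it to -1.30. Without OVCAR5 replicate 2 it was -0.94, and 14 of the 15 RNAs were again lower without overlap, where 13.7% of all genes were lower without overlap in those 5 libraries.

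Shares of the mitochondrial mRNA pool were compared within the libraries, a measure that multiplying a whole library by a factor does not move. The groups overlapped for 9 of the 13 shares, among them those of MT-CO1, MT-CO3 and MT-CYB. MT-ND5 made up 6.60%, 6.88% and 5.55% of the mitochondrial mRNA signal in OVCAR5 and 5.12%, 3.05% and 4.98% in OVCAR5R. MT-ND6 made up 1.18%, 1.70% and 1.27% against 1.10%, 0.639% and 0.909%. MT-ND2 went the other way, with 6.28%, 6.45% and 7.65% against 8.80%, 7.87% and 9.23%, and MT-ND4 made up 14.6% to 16.3% in OVCAR5 and 17.1% to 17.8% in OVCAR5R. These 4 shares did not overlap and were singled out for that after their values were seen. The ratio of MT-ND6 to MT-ND5, adjacent genes on opposite strands, was 0.218 ± 0.0347 (SD, n = 3) for the parental line and 0.202 ± 0.0174 for OVCAR5R, and the groups overlapped. MT-ATP8 to MT-ATP6 was 0.195 ± 0.00697 and 0.196 ± 0.0176, also overlapping. The share and the ratio of MT-ND6 carry the strand limit given above.

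Divided by gene length, the mitochondrial mRNAs covered a wide range of levels in OVCAR5, from 1006 signal units per kb for MT-ND6 and 1340 for MT-ND5 to 5587 for MT-CO1 and 7442 for MT-CO2. In OVCAR5R the same 4 genes were at 320, 464, 2731 and 3769 per kb, so the order of these genes was kept. The nuclear subunits, divided by the median length of their coding transcripts, lay between 13.9 per kb for NDUFV3 and 508 for COX8A over all 6 libraries, below every mitochondrial mRNA in OVCAR5. In OVCAR5R this order did not hold, since COX8A was at 495 and ATP5F1B at 478 per kb, above MT-ND5 and MT-ND6. These per-kb levels depend on the transcript chosen for the nuclear genes.

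**Figure D2:**
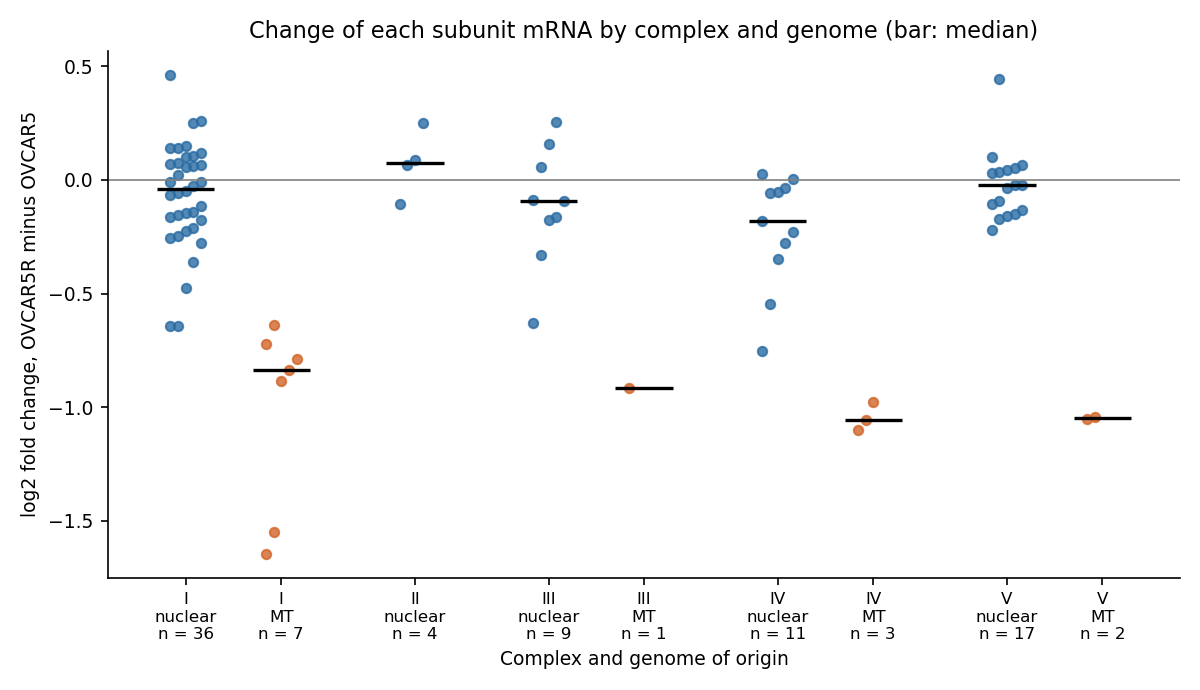
Log2 fold change (OVCAR5R minus OVCAR5) of the subunit mRNAs, one point per gene, split by complex and genome of origin, with a bar at the median. In complexes I, III, IV and V the mitochondrial medians lie between -1.06 and -0.84 and the nuclear medians between -0.18 and -0.02. Complex II has nuclear subunits only.

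Set against each other in the same library, the 2 genomes separated the lines. The mean log2 value of the mitochondrial mRNAs minus that of the nuclear subunits was 4.61, 4.04 and 4.26 in OVCAR5 and 2.63, 3.80 and 3.66 in OVCAR5R. The groups did not overlap, and the difference between their means was -0.94. OVCAR5 replicate 2 and OVCAR5R replicate 2 were the nearest pair, 4.04 against 3.80. Part of this measure came from the nuclear side, since the mean log2 value of the nuclear subunits was itself 6.41, 7.01 and 6.70 in OVCAR5 and 6.73, 6.69 and 6.47 in OVCAR5R. As summed signal, mitochondrial mRNA was 4.77, 3.23 and 3.62 times the nuclear subunit signal in OVCAR5 and 1.19, 2.74 and 2.47 times in OVCAR5R.

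**Figure D3:**
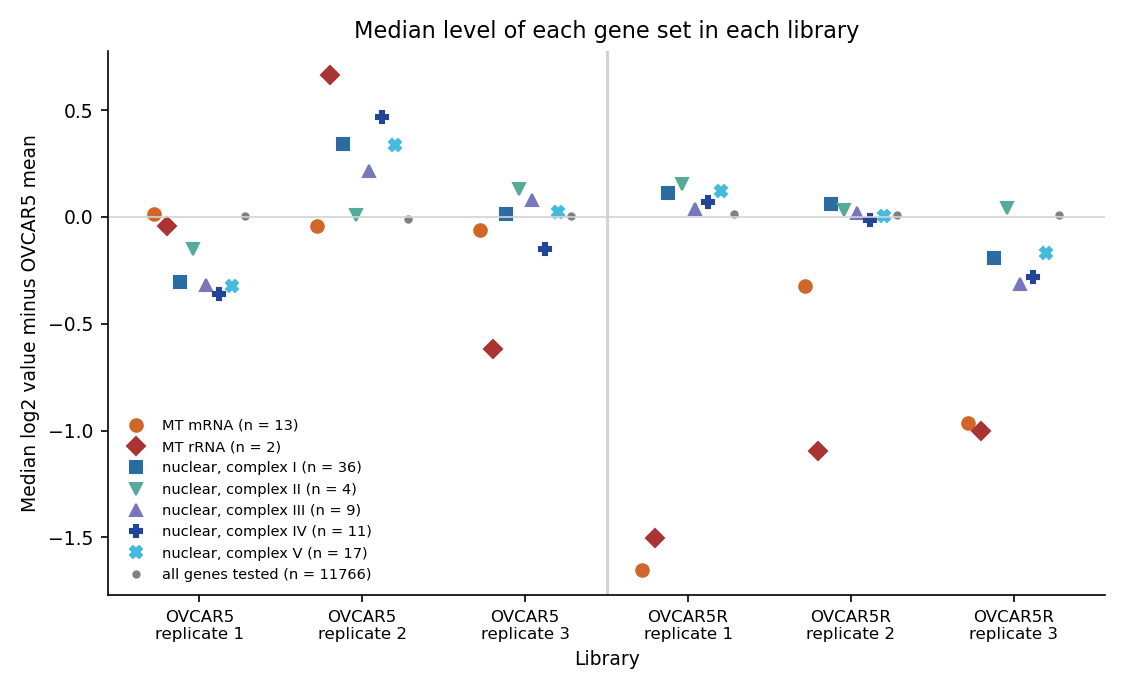
Median log2 value of each gene set in each library, relative to the OVCAR5 mean of each gene, with libraries along the horizontal axis and one symbol per set. Mitochondrial mRNAs lie between -0.06 and 0.01 in the 3 OVCAR5 libraries and reach -1.65 in OVCAR5R replicate 1, whereas the nuclear sets are highest in OVCAR5 replicate 2 except for complex II.

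Among the nuclear subunits the libraries differed more by culture than by cell line. Relative to the OVCAR5 mean, their median was -0.31, 0.34 and 0.01 for the parental cultures and 0.09, 0.01 and -0.20 for the resistant ones. OVCAR5 replicate 2 was the highest of the 6 libraries for 47 of the 77 subunits (61.0%, against 26.9% of all genes tested). OVCAR5 replicate 1 was the lowest of the 6 for 43 of the 77, so the parental line held both ends. Subunit mRNAs are short, and OVCAR5 replicate 2 also departed from its 2 partners by transcript length. The median of OVCAR5 replicate 2 minus the mean of replicates 1 and 3 was 0.39 over the 1119 genes with transcripts up to 1000 bases and -0.36 over the 2876 genes above 4000 bases. For the 53 nuclear subunits up to 1000 bases it was 0.59. The part of transcript length in the nuclear values was not tested. Without OVCAR5 replicate 2, 55 of the 77 subunits were higher in OVCAR5R by their means, with a median of 0.08. Without OVCAR5 replicate 1, 64 of the 77 were lower, with a median of -0.19, so the direction depended on the library left out. With all libraries 47 of 77 were lower. That count was 40 after centring each library on its median and 36 after a correction by transcript length.

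Complex I takes electrons from NADH and has the most nuclear subunits. Their median log2 fold change was -0.04 over 36 genes, with -0.12 for the NADH-oxidizing N module, -0.04 for the ubiquinone-reducing Q module and -0.02 for the accessory subunits of the membrane arm. Without OVCAR5 replicate 2 all of these medians were above 0, at 0.13 for the 36 genes and 0.09, 0.11 and 0.17 for the modules in that order. The 7 nuclear core subunits carry the flavin and iron-sulfur clusters, and NDUFV2 was the lowest of them at -0.36, or -0.02 without OVCAR5 replicate 2. NDUFS1, which holds several of these clusters, was at 161, 138 and 167 in OVCAR5 and 147, 161 and 153 in OVCAR5R, a log2 fold change of -0.01 with a 95% interval of -0.43 to 0.41. NDUFV1, the flavin subunit, had -0.07 (-0.57 to 0.43), NDUFS3 0.06 (-0.46 to 0.59), NDUFS7 -0.14 (-0.68 to 0.40) and NDUFS8 -0.18 (-0.72 to 0.36). For none of these named genes did the libraries separate.

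At the ends of complex I were NDUFB9 and NDUFS4. NDUFB9, an accessory subunit of the membrane arm, was at 150, 184 and 190 in OVCAR5 and 204, 279 and 243 in OVCAR5R, higher without overlap, with a log2 fold change of 0.46 (adjusted p = 0.489 by limma, standard error 0.21). NDUFS4, an accessory subunit needed for a stable N module, was at 38.8, 49.3 and 43.6 against 40.3, 29.4 and 17.6, and OVCAR5R replicate 3 alone was far below the rest. Its log2 fold change was -0.64 (adjusted p = 0.507 by limma, standard error 0.31).

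Complex II, succinate dehydrogenase, is shared with the tricarboxylic acid cycle. SDHC, a membrane anchor, was at 122, 117 and 127 in OVCAR5 and 159, 142 and 137 in OVCAR5R, higher in every resistant library, with a log2 fold change of 0.25 (adjusted p = 0.649 by limma, standard error 0.18). SDHA, the flavoprotein that oxidizes succinate, had -0.10 (95% interval -0.57 to 0.37), the iron-sulfur subunit SDHB 0.07 (-0.40 to 0.53) and the second anchor SDHD 0.09 (-0.34 to 0.51). The median of the 4 was 0.08, in the complex that has no mitochondrial-encoded subunit.

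Complex III passes electrons from ubiquinol to cytochrome c. Its 9 nuclear subunits had a median of -0.09, which was 0.08 without OVCAR5 replicate 2. CYC1, which carries heme c1, was at 290, 315 and 418 against 286, 481 and 386, with both lines spread over the same range. UQCRFS1, the Rieske iron-sulfur protein, was the highest at 0.26 (standard error 0.23) and UQCR10, a small accessory subunit, the lowest at -0.63 (standard error 0.32), with adjusted p-values of 0.729 and 0.530 from limma. UQCRHL, an intronless copy of UQCRH with a row of its own, was far below it in OVCAR5 (13.8 ± 3.21 against 181 ± 34.4, SD, n = 3), and reads of the 2 genes may have been split between them.

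Complex IV reduces oxygen. Its 11 nuclear subunits had a median of -0.18 and 9 of the 11 were lower by their means, but without OVCAR5 replicate 2 the median was 0.03 and 5 of 11 were lower. COX4I1, a regulatory subunit that binds ATP, had the lowest log2 fold change of all nuclear members. It was at 224, 462 and 322 in OVCAR5 and 260, 237 and 112 in OVCAR5R, and the groups overlapped. Its log2 fold change was -0.75 (adjusted p = 0.537 by limma, standard error 0.38), and it ranged from -1.01 to -0.37 with a library left out. COX6A1 was the highest at 0.03, with values of 122, 274 and 136 against 184, 183 and 142. COX6B1 (0.00), COX7A2 (-0.05), COX7B (-0.18) and NDUFA4 (-0.23), a subunit first assigned to complex I, all overlapped between the lines. Without OVCAR5 replicate 2, COX6A1 had 0.39 and was higher without overlap, where 13.8% of all genes were. COX6B1, COX7A2, COX7B and NDUFA4 then had 0.31, 0.23, 0.03 and -0.09, and they still overlapped. COX7A2L, a relative of COX7A2 that joins complexes III and IV into supercomplexes, was at 0.02 with an interval of -0.41 to 0.46. The muscle, lung, testis or hypoxia forms that can replace some of these (COX4I2, COX6A2, COX6B2, COX7A1, COX7B2, NDUFA4L2) were not analysed here.

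Complex V had a nuclear median of -0.02 over 17 subunits, with 0.03 for the catalytic F1 head and -0.02 for the nuclear part of the membrane sector. Without OVCAR5 replicate 2 these were 0.04, 0.04 and 0.15. The catalytic pair was even between the lines. ATP5F1A was at 253, 241 and 294 in OVCAR5 and 321, 262 and 227 in OVCAR5R (0.03), and ATP5F1B at 761, 747 and 958 against 969, 888 and 783 (0.10).

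The proton-carrying c-ring of complex V can be built from 3 nuclear genes whose products differ in their import sequences but yield the same mature subunit. ATP5MC1 was at 61.3, 106 and 108 in OVCAR5 and 116, 130 and 118 in OVCAR5R, higher without overlap, with OVCAR5 replicate 1 well below the rest. Its log2 fold change was 0.44 (adjusted p = 0.584 by limma, standard error 0.26). ATP5MC2 had 191 ± 7.18 against 173 ± 31.3 and ATP5MC3 252 ± 49.1 against 247 ± 33.5 (SD, n = 3 each), with log2 fold changes of -0.16 and -0.02. Of the related genes, ATP5S, which is homologous to a coupling factor and is not a core subunit, had 0.55 (adjusted p = 0.449 by limma, standard error 0.22) and was higher without overlap, and ATP5IF1, the inhibitor that blocks ATP hydrolysis, had -0.24 (standard error 0.33), which was 0.12 without OVCAR5 replicate 2.

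Several of the nuclear members that differed most lay in regions where the neighbouring genes differed the same way. COX4I1 lies on chromosome 16 (chr16:85798633-85807044, GRCh38 by symbol in GENCODE release 29), and the 72 tested genes within 10 Mb of it had a median log2 fold change of -0.59. Their median relative to the OVCAR5 mean was -0.36, -0.40 and -1.02 in the resistant cultures, with replicate 3 the lowest, as for COX4I1 itself. NDUFA6 (-0.64) and UQCR10 (-0.63) lie on chromosome 22, and the 159 and 178 genes around them had medians of -0.55 and -0.44. In both, OVCAR5R replicates 1 and 2 were the lowest for the gene and for its neighbours. COX7C, on chromosome 5, had -0.55 with -0.27 around it, and ATP5S on chromosome 14 had 0.55 with 0.63 around it.

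Other members had log2 fold changes of another size than the median of their surroundings. NDUFS4 on chromosome 5, the lowest subunit after COX4I1 at -0.64, had a median of only -0.18 over the 34 genes around it. The order of the resistant cultures was the same, however. Relative to the OVCAR5 mean, NDUFS4 was at -0.11, -0.55 and -1.27 and its neighbours at 0.22, -0.26 and -0.58, with replicate 3 the lowest in both. NDUFA5 on chromosome 7 had -0.47 where the 48 genes around it had a median of 0.02, and ATP5MC1 on chromosome 17 had 0.44 with 0.10 around it. Over the 77 nuclear subunits, Pearson's r between the subunit's log2 fold change and that of its neighbours was 0.713. This is a description across genes of the same 6 libraries, several of which share a neighbourhood. The regions were looked at after the values of the members were known, and the part of the chromosome regions in these differences was not tested.

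**Figure D4:**
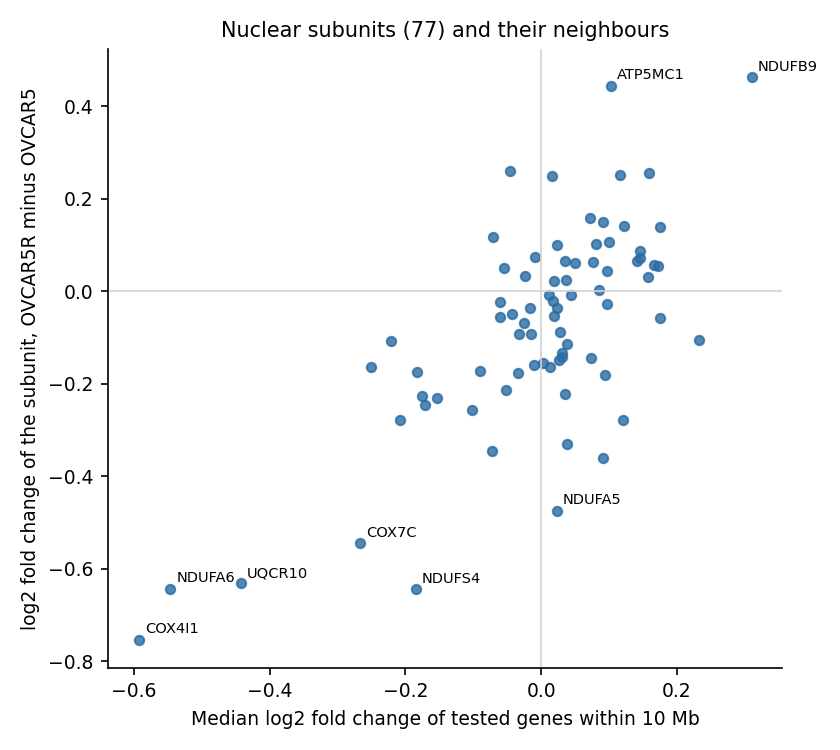
Log2 fold change of each of the 77 nuclear subunits (vertical axis) against the median log2 fold change of the tested genes within 10 Mb that are not members (horizontal axis). COX4I1, NDUFA6 and UQCR10 sit at the lower left, with neighbour medians between -0.59 and -0.44, NDUFS4 is as low with a neighbour median of -0.18, and NDUFB9 at the upper right with 0.31.

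Promoters of the nuclear subunits were searched for sites of the factors known to drive such genes, on both strands of the RefSeq windows from 250 bases before to 50 after the gene start (GRCh38.p14). Of the 77 subunits, 64 had a window. The palindromic NRF1 motif, with 1 base between its arms left free, was present in 16 of these, against 6.28% of all 27305 windows and 12.2% of the 9413 windows of genes listed in the table. The ETS-type motif CCGGAAGTG of GABPA was present in 4 (6.25%, against 2.5% of all windows and 5.38% of those of listed genes). The promoters of ATP5MC1 and COX4I1 are shown because these genes were the highest and the lowest subunits that had a window. Neither holds the letters of these motifs or of the YY1 motif, so no bases are in capitals. The YY1 motif was present in 4 of the 64 (6.25%, against 0.916% of all windows and 2.16% of those of listed genes).
ATP5MC1 (chr17:48892537-48892836, plus strand): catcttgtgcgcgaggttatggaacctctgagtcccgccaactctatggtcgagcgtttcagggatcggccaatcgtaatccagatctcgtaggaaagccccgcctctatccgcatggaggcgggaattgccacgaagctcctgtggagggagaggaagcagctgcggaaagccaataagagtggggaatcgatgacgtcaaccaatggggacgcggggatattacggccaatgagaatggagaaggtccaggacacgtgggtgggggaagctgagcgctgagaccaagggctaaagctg
COX4I1 (chr16:85799445-85799744, plus strand): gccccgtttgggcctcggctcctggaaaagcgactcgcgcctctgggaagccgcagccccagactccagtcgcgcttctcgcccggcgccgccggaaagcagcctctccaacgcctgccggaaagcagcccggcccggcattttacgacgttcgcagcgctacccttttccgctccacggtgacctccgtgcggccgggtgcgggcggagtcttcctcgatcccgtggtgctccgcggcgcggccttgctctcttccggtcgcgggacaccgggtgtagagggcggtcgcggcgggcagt

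Over the 8 regulators tested the median log2 fold change was -0.03, with 3 higher and 5 lower in OVCAR5R. Without OVCAR5 replicate 2 it was -0.12, with 2 higher and 6 lower. NRF1 itself was at 16.4, 16.6 and 18.7 in OVCAR5 and 18.0, 17.7 and 17.4 in OVCAR5R (log2 fold change 0.04, standard error 0.20). GABPA had -0.19, its partner GABPB1 -0.03, the nuclear receptor ESRRA -0.04 and the coactivators PPARGC1B and PPRC1 0.01 and 0.18. YY1 had -0.23 and SP1 -0.39, and SP1 was the 1 regulator of 8 whose libraries did not overlap, where 16.6% of all genes did not (97.6 ± 16.8 against 73.7 ± 3.45, SD, n = 3 each, adjusted p = 0.537 from limma). PPARGC1A was not analysed here.

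The nuclear genes that copy and transcribe mitochondrial DNA were mostly higher by their means, in contrast to the mitochondrial RNAs. Of 16 genes tested 13 were higher and 3 lower, with a median log2 fold change of 0.23, where 50.8% of all genes were lower. Without OVCAR5 replicate 2 the median was 0.15, again with 13 higher and 3 lower. Relative to the OVCAR5 mean, the median of the 16 genes was -0.12, -0.11 and 0.20 in OVCAR5 and 0.31, 0.12 and 0.26 in OVCAR5R. The lines overlapped, with OVCAR5 replicate 3 above OVCAR5R replicate 2. With all libraries none had an adjusted p or an unadjusted p under 0.05, and 2 (TFB2M and TEFM, a transcription initiation and an elongation factor) were higher without overlap, near the 8.4% of all genes. The extremes were TWNK, the replicative helicase, at 0.38 (standard error 0.23) and the DNA polymerase POLG at -0.11 (standard error 0.19). TFAM, which packages the mitochondrial DNA and starts transcription, had 0.35 (adjusted p = 0.693 by limma, standard error 0.28). It was named after its value was seen.

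The list of mitochondrial RNA processing and stability factors had a median of 0.29, with 20 of 23 genes higher by their means. None had an adjusted p under 0.05, 3 were higher at an unadjusted p under 0.05 (4.14% of all genes), and 7 of the 23 (30.4%) were higher without overlap (8.4% of all genes). Among them were KIAA0391 (0.64, standard error 0.23) and TRMT10C, parts of the enzyme that cuts mitochondrial precursor RNAs at the 5′ end of tRNAs, and ELAC2 (0.55, standard error 0.23), which cuts at the 3′ end. Their adjusted p-values from limma were at least 0.391. HSD17B10, another part of the enzyme that cuts at the 5′ end, had 0.04 (standard error 0.23), and its libraries overlapped. PTCD2 was the lowest at -0.31 (standard error 0.30). KIAA0391 lies on chromosome 14, where 40 genes around it had a median of 0.49. Without OVCAR5 replicate 2 the median of the list was 0.23 and 9 genes were higher without overlap, where 13.8% of all genes were.

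**Figure D5:**
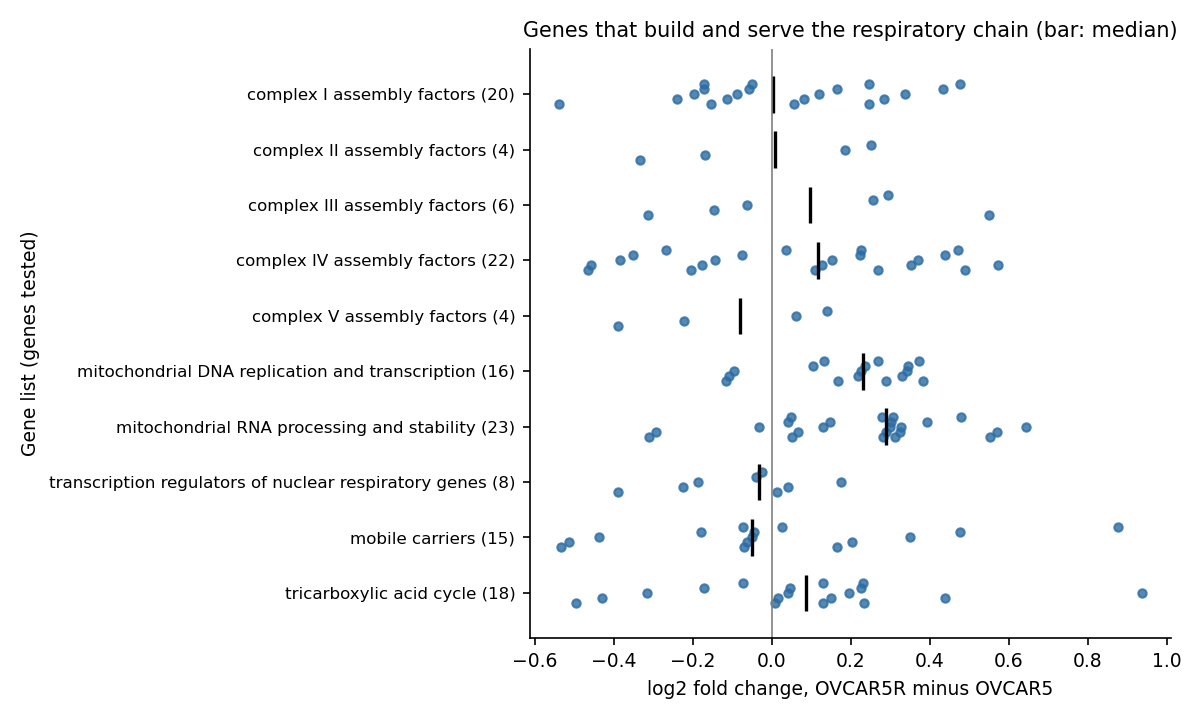
Log2 fold change (horizontal axis) of the genes of 10 lists that build or serve the respiratory chain, one point per tested gene, with a bar at the median and the number of genes in brackets. The medians lie between -0.08 and 0.29, and the 2 highest are those of mitochondrial DNA replication and transcription and of mitochondrial RNA processing.

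The factors that assemble the complexes were spread around 0. Medians were 0.00 for the 20 complex I factors, 0.01 for 4 of complex II, 0.10 for 6 of complex III, 0.12 for 22 of complex IV and -0.08 for 4 of complex V. Without OVCAR5 replicate 2 all 5 were above 0, at 0.08, 0.22, 0.10, 0.17 and 0.14 in that order. No gene of these lists passed an adjusted p of 0.05 in limma. In complex I assembly DMAC1 (0.48) and NDUFAF2 (-0.54) were the extremes. In complex II assembly they were SDHAF2 (0.25) and SDHAF4 (-0.33), in complex III assembly BCS1L (0.55), which inserts the Rieske protein, and LYRM7 (-0.31). In complex IV assembly, COX16 (0.57, unadjusted p under 0.05) was the highest and COX19 (-0.47) the lowest, with 4 genes higher and 2 lower without overlap, where 8.4% and 8.18% of all genes were. Without OVCAR5 replicate 2 these counts were 8 and 2, with 13.8% and 13.7% of all genes. In complex V assembly ATPAF1 had 0.14 and TMEM242 had -0.39.

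Among cytochrome c and coenzyme Q genes the median was -0.05, with 6 of 15 higher and 9 lower, and without OVCAR5 replicate 2 it was 0.04 with 9 higher and 6 lower. COQ6, a hydroxylase of coenzyme Q synthesis, was the highest at 0.88 (adjusted p = 0.298 by limma, standard error 0.24), and COQ2, which attaches the isoprenoid tail, the lowest at -0.53 (adjusted p = 0.516 by limma, standard error 0.26). For the tricarboxylic acid cycle the median was 0.09, with DLST, a subunit of 2-oxoglutarate dehydrogenase, highest at 0.94 (adjusted p = 0.289 by limma, standard error 0.24) and MDH2, malate dehydrogenase, lowest at -0.50 (adjusted p = 0.588 by limma, standard error 0.29). Of the cycle genes 13 were higher and 5 lower. Without OVCAR5 replicate 2 their median was 0.005, with 10 higher and 8 lower. COQ6 and DLST lie on chromosome 14 as well, with medians of 0.45 and 0.52 over the 109 and 101 genes around them. COX16, on the same chromosome, had 0.53 over 117.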

How the data were processed

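Values for 3 OVCAR5 and 3 OVCAR5R cultures, sequenced from total RNA, were read from 1 deposited table. The authors deposited a normalized signal on a linear scale for each culture, and their methods state quartile normalization and log transformation ahead of analysis, while the table is on a linear scale. The submitters' processing notes name hg38. The aligner, counter and annotation are not given in the sources used here. Low values in a library were multiples of a step, and 61.7% to 65.8% of values were whole multiples (tolerance 0.005), so the signal is scaled estimated reads and count tests were not used. A duplicated row was kept once (12308 of 12309 rows).

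Values were taken as log2(value + 1), which understates the fold changes of low genes. Genes that reached 1 in 3 or more libraries were tested by limma version 3.58.1 (trend, two-sided) in R version 4.3.3, with Benjamini-Hochberg adjustment at 0.05 over all 11766 genes. The study names an unpaired rank test, which is given as the count of genes without overlap. The script was tested on simulated data, where log2 changes of 1 were not recovered at the adjusted threshold, so a count of 0 does not show that members were equal. Replicates are described as triplicate cultures, and p-values measure the spread between these.

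The members, lists and tests were chosen with earlier results of these data known. Named genes were all mitochondrial rows, nuclear core subunits, the extremes of each complex and list, interchangeable paralogs, the members with the smallest p and all regulators. One gene that this rule names is not reported here. NDUFA6, NDUFA5, COX7C, TFAM, TFB2M, TEFM, TRMT10C, ELAC2, HSD17B10 and COX8A were added after their values were seen. Subunits leave out ATP5IF1, ATP5S, COX7A2L, UQCRHL and the readthrough row ATP5MF-PTCD1. Positions and lengths came from GENCODE release 29, which holds 12233 of 12305 symbols. Alternatives were 3 other scalings, a pseudocount of 0.1, 2 other filters, no trend, a replicate block, each library left out and, added after seeing the data, a correction by transcript length. Figures were drawn with matplotlib version 3.10.9.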

Additional observations from a re-analysis of the deposited data

How the results depend on the processing

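No member had an adjusted p under 0.05 under any of the 15 alternatives. The adjusted p of MT-ND6 was 0.0543 to 0.229 over them (limma). All 15 mitochondrial RNAs were lower in OVCAR5R by their means under every alternative. The count of these RNAs lower without overlap was 14 as reported, 8 after quantile normalization, 12 with 1 total set without mitochondrial rows, 13 after median centring and 9 after the correction by transcript length, and the cause was not tested. At an unadjusted p under 0.05 they were 12 as reported, 8 after quantile normalization and 6 to 14 with a library left out. Nuclear members lower without overlap were 0 as reported and 12 of 82 without OVCAR5 replicate 1, where 12.4% of all genes were lower without overlap. The median log2 fold change of the mitochondrial mRNAs was -0.79 after quantile normalization and -0.90 after the length correction, and -1.30 to -0.63 with a library left out. That of the nuclear subunits was -0.19 to 0.08 with a library left out, higher than 0 without OVCAR5 replicate 2 (0.08) and without OVCAR5R replicate 3 (0.04), and 0.02 after the length correction, so no direction is given for it. The mitochondrial minus nuclear difference was -1.16 to -0.57. Members at an unadjusted p under 0.05 numbered 14 as reported and 8 to 14 with a library left out, with 8 without OVCAR5 replicate 3. Members without overlap numbered 18 as reported and 21 to 30 with a library left out, with 30 without OVCAR5 replicate 1, since fewer libraries overlap less often. Same-numbered cultures had deviation correlations of 0.00, 0.18 and -0.12, and 1 of 3 OVCAR5 cultures correlated best with its own number. No pairing by number was seen, but 3 cultures per line are too few to exclude one. With the replicate block the members at an unadjusted p under 0.05 were 12, the count without overlap was 18, and the count at an adjusted p under 0.05 was 0 of the members and 5 of all genes, where it was 14 without the block.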
